A study of Mus musculus with 22 samples.

Results

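The insulin-like growth factor (IGF) axis was followed here through 10 genes: the ligand gene Igf1, the receptor genes Igf1r and Igf2r, and the binding protein genes Igfbp1 to Igfbp7. They were chosen by symbol, and all 10 were found among the 55487 gene entries of the deposited count table. RNA of 22 kidneys had been read near the poly(A) tail of each transcript (QuantSeq FWD, a 3′ tag method), with 1 library per mouse, and all mice were wild-type C57BL/6JRj males. Young mice of 4 months (n = 6) and old mice of 21 months (n = 8) received no supplement. A further 8 old mice of 21 months were fed nicotinamide (NAM), a B vitamin from which cells make NAD, for 14 weeks: each kg of food held 1.6 g, meant to give 200 mg daily for every kg of body weight. No genetic change was named for any group, and each library was a small piece of whole kidney, so a change in the share of a cell type cannot be told apart from a change within its cells.

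IGF-1 signals through the tyrosine kinase receptor encoded by Igf1r, which feeds the PI3K, AKT and mTOR route and the MAP kinase route. The protein encoded by Igf2r, also known as the cation-independent mannose 6-phosphate receptor, takes up IGF-2 for breakdown and sorts enzymes to lysosomes. IGF-binding proteins hold IGFs in blood and tissue, and proteases such as pappalysin release the ligand again. Circulating IGF-1 is made mainly by the liver under growth hormone, while the kidney makes part of its own supply and expresses several of the binding proteins.

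The young libraries held 3351065 to 7184997 gene counts each, the old ones 5443099 to 7519169 and the nicotinamide-fed ones 5663649 to 8319865. Some kidneys stood apart. Old replicate 7 and nicotinamide replicate 1 had the highest sums of 5 principal cell markers of the collecting duct (Aqp2, Aqp3, Aqp4, Scnn1g and Fxyd4). These sums were 816 and 944 CPM, against 163 to 503 in the other 20 kidneys. CPM are counts per 1000000 gene counts of the library, its total after the low-count filter scaled by its TMM factor (edgeR). Aqp2 made up most of the sums of 816 and 944 CPM, at 662 and 793 CPM. The same kidneys held 99.6 and 106 CPM of 6 urothelium markers, against 0.580 to 47.5 in the others. Young replicate 2 had the lowest sums of both lists (163 and 0.580 CPM). Young replicate 6 was the shallowest library, and nicotinamide replicate 7 had the lowest urothelium sum of its group (3.30 CPM). Fits without young replicate 6, old replicate 7 and nicotinamide replicates 1 and 7 are called fits without the 4 kidneys. Young replicate 2 was kept in those fits, so they do not remove every kidney that stood apart. Results that rest on single kidneys are given with and without them.

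Of the members, 2 passed the test between old and young kidneys, 0 between nicotinamide-fed and old kidneys, and 3 between nicotinamide-fed and young kidneys. The members past the threshold in the age comparison were Igf1, which rose, and Igf2r, which fell. Igfbp2 had the largest log2 fold change of the 10 in old against young mice without passing, and rose in nicotinamide-fed against young mice. Across all 14683 genes tested with edgeR's quasi-likelihood test, 7.04% passed between old and young, 0.0272% between nicotinamide-fed and old, and 8.70% between nicotinamide-fed and young (4.73% higher and 3.96% lower), at a Benjamini-Hochberg adjusted p under 0.05. Both comparisons with young mice share the young libraries. The median log2 fold change of the 10 members between old and young was 0.06, against 0.01 over all genes tested, and 6 members had a value above 0 and 4 below.

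The promoters of the 3 members that carry these differences are shown first, from 250 bases before to 50 bases after an annotated start site (RefSeq, GRCm38.p6, gene strand, 5′ to 3′). Capitals mark matches, on either strand, to the GC box GGGCGG or to CCAAT, motifs of general promoters. The Igf1 window lies on the plus strand at chr10:87860861-87861160, the Igfbp2 window (the upstream of 2 annotated starts) on the plus strand at chr1:72824230-72824529, and the Igf2r window on the minus strand at chr17:12769657-12769956. In another annotation (GENCODE, GRCm38) the Igf1 gene begins upstream of its whole window, so the window belongs to a start inside the gene. The sequence at that upstream start was not examined.
Igf1: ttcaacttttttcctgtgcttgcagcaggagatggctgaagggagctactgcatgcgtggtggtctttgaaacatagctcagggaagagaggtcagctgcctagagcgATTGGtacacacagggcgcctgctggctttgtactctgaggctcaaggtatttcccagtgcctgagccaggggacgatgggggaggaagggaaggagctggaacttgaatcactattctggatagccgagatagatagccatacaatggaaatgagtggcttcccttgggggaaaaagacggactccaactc
Igfbp2: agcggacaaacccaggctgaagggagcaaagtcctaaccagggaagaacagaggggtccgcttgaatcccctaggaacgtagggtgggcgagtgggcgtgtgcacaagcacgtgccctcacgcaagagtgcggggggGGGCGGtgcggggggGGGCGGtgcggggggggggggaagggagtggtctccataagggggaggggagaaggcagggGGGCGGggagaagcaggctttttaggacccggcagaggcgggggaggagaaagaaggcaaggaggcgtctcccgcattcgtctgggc
Igf2r: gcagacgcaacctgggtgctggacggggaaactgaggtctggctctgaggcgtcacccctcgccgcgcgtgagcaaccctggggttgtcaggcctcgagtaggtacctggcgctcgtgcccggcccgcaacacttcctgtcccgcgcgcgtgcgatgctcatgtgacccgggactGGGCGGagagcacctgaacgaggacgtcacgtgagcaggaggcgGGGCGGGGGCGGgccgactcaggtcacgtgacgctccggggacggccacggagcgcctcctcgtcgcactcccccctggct
The Igfbp2 and Igf2r windows each held 3 GC boxes, and G and C made up 67.0% and 70.7% of their bases. The Igf1 window held no GC box and 1 CCAAT match on the opposite strand, at 52.3% G and C. Among all 32851 windows of this kind, 35.7% held a GC box and 37.4% a CCAAT match, with a median of 52.7% G and C. The TATA box TATAAA, found in 13.6% of all windows, was on neither strand of these 3. The forkhead core GTAAACA, found in 3.65% of all windows, was on neither strand. The insulin response core CAAAACA, found in 6.28% of all windows, was on neither strand either. The windows of Igf1r and Igfbp7, members that passed in no comparison of groups, also held GC boxes, at 76% and 73.3% G and C. The window of the downstream Igfbp2 start had 57.3% G and C. A match describes the letters only.

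**Figure D1:**
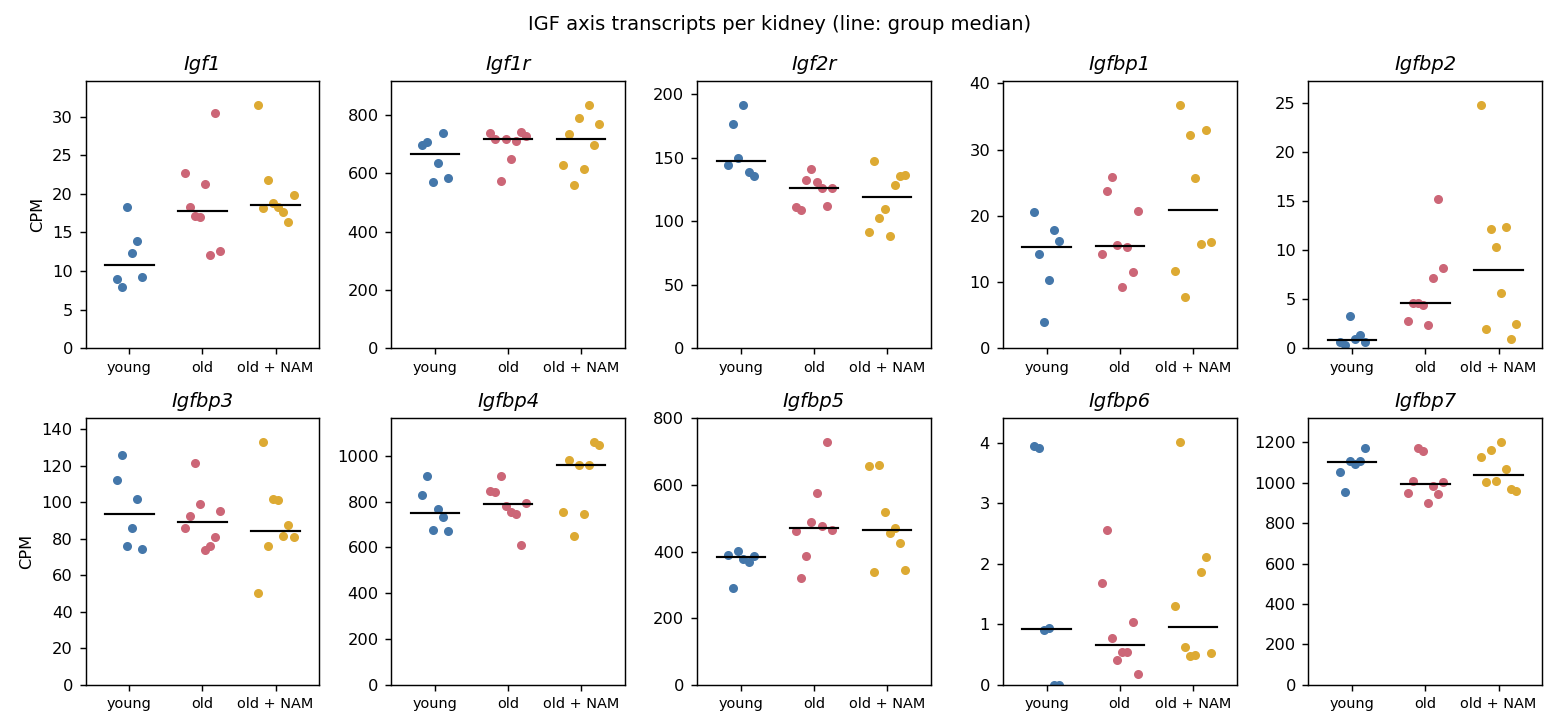
Level of each gene in every kidney, in CPM (linear axes from 0), for 6 young, 8 old and 8 nicotinamide-fed old mice (NAM). Points are kidneys and lines are group medians. The medians of Igf1 and Igfbp2 lie higher and that of Igf2r lower in both old groups than in young kidneys, with overlap between groups.

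Igf1 encodes the ligand. It lay at 7.98 to 18.3 CPM in young kidneys (median 10.8), at 12.01 to 30.5 in old kidneys (median 17.7) and at 16.4 to 31.5 in nicotinamide-fed kidneys (median 18.6). All 8 old kidneys lay above the young median and 4 of 8 above every young kidney, so the groups overlapped. Young replicate 3 was the highest of its group, and old replicate 7 and nicotinamide replicate 1 the highest of theirs. Igf1 rose 1.60-fold in old kidneys (log2 fold change 0.67 ± 0.20 SE, edgeR adjusted p = 0.0302, n = 6 and 8). The call was lost in 9 of 33 alternatives. These were limma-voom (adjusted p = 0.0636), the fit without the 4 kidneys (0.49, adjusted p = 0.118) and the removal of young replicate 1 (0.0868), 2 (0.102), 4 (0.0585) or 6 (0.0687) or old replicate 1 (0.0601), 5 (0.0536) or 7 (0.0979). In nicotinamide-fed against young kidneys Igf1 rose 1.71-fold (0.77 ± 0.20, edgeR adjusted p = 0.00980), and this call held in all 33 alternatives, with a highest adjusted p of 0.0476. Behind these levels stood 29 to 122 counts in a young library and 67 to 243 in a library of an old mouse on either diet.

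Macrophages, a known source of IGF-1, and fibroblasts also contribute transcripts to whole kidney. The summed level of 10 macrophage markers was 118 to 158 CPM in young and 197 to 384 in old kidneys, and 8 of the 10 markers rose. The summed level of 8 fibroblast markers was 175 to 306 CPM in young and 325 to 515 in old kidneys, and 5 of the 8 rose. The sums of 7 injured tubule markers (298 to 418 CPM in young, 480 to 649 in old kidneys) and of 8 mural cell markers (180 to 241 in young, 273 to 432 in old kidneys) were higher in old mice too. None of these 4 sums overlapped between young and old mice, and no marker of these lists was at 0 in any group. Of all single genes tested, 3.90% rose between old and young and 2.64% did not overlap. Spp1 (156 ± 35.9 CPM in young kidneys) and Clu (162 ± 20.3) made up most of the injured tubule sum. Of the 6 tested markers of that list 4 rose (Clu, Havcr1, Sox9 and Vcam1), and Spp1 did not pass (edgeR adjusted p = 0.0592). Of the 8 mural cell markers 4 rose. The kidneys highest in Igf1, old replicate 7 and nicotinamide replicate 1, were also the highest of their groups in the principal cell, urothelium and adipocyte markers (237 and 711 CPM of 6 adipocyte markers) and the lowest in the proximal tubule markers (4603 and 3368 CPM). Nicotinamide replicate 1 was also the highest of its group in the macrophage (468 CPM), fibroblast (551), injured tubule (1007) and endothelium markers (811). It was not the highest in the mural cell markers. Old replicate 7 led its group in the mural cell (432 CPM) and endothelium markers (752). It did not lead in the macrophage (341), fibroblast (506) or injured tubule markers (518). The part of these cells in the Igf1 result was not tested.

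No tag of Igf2, the second ligand gene, was counted in any of the 22 libraries, which allows up to 0.361 to 0.895 CPM, the level of 3 counts in each library, counting error only. Insr, the insulin receptor, stood at 43.5 ± 10.2 CPM (SD) in young and 45.3 ± 5.30 in old kidneys (0.06 ± 0.13, edgeR adjusted p = 0.837).

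Igf1r was among the most abundant members. Since the kit reads the 3′ end of each transcript, CPM does not scale with transcript length, and tag levels of genes can be set side by side. How completely the tags of each gene were captured and counted was not tested. In young kidneys mean levels ran from Igfbp7 (1082 ± 72.2 CPM), Igfbp4 (765 ± 94.1) and Igf1r (655 ± 69.3) through Igfbp5 (369 ± 40.7), Igf2r (156 ± 22.5) and Igfbp3 (96.0 ± 20.8) to Igfbp1 (13.8 ± 5.95), Igf1 (11.8 ± 3.91), Igfbp6 (1.62 ± 1.84) and Igfbp2 (1.19 ± 1.09). Of neighbours in this order, Igfbp4 and Igf1r, Igfbp1 and Igf1, and Igfbp6 and Igfbp2 overlapped in range, and the others did not. The tags of Igf1r thus outnumbered those of Igf1 in every kidney. Young kidneys had 569 to 737 CPM of Igf1r, old ones 575 to 741 and nicotinamide-fed ones 559 to 834. The groups overlapped, and 3 of 8 nicotinamide-fed kidneys lay above every old kidney. Its log2 fold change was 0.09 between old and young kidneys (95% interval −0.08 to 0.26, edgeR adjusted p = 0.621).

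Igf2r fell. It lay at 136 to 191 CPM in young kidneys (median 147), at 109 to 141 in old kidneys (median 126) and at 88.4 to 147 in nicotinamide-fed kidneys (median 119). All 8 old kidneys lay below the young median, and 7 of them below every young kidney. The fall in old kidneys was 1.27-fold (log2 fold change −0.34 ± 0.10 SE, edgeR adjusted p = 0.0350). It kept its size without the 4 kidneys (−0.35, adjusted p = 0.0268), but the call was lost in 6 of 33 alternatives. These were limma-voom (0.05002) and the removal of young replicate 2 (0.116), young replicate 4 (0.124), old replicate 1 (0.0622), old replicate 2 (0.0753) or old replicate 7 (0.0691). Young replicates 2 and 4 were the 2 highest of all kidneys, at 177 and 191 CPM. The summed level of 8 proximal tubule markers was 6320 to 7465 CPM in young and 4603 to 6619 in old kidneys. None of the 8 was at 0 in any group. Of these markers 1 fell, against 3.15% of all genes tested: Hnf4a, a transcription factor of that segment (−0.32 ± 0.08, edgeR adjusted p = 0.0120). By log2 fold change 6 of the 8 lay below 0 and 2 above. The part of these markers in the Igf2r result was not tested. In nicotinamide-fed against young kidneys Igf2r fell 1.33-fold (−0.41 ± 0.10, edgeR adjusted p = 0.00779), a call kept in all 33 alternatives. The long noncoding antisense gene Airn overlaps Igf2r on the other strand, and the strand setting of the counting is not given in the sources used here. Airn stood at 6.45 to 10.0 CPM in young and 7.65 to 12.7 in old kidneys (0.53 ± 0.20, edgeR adjusted p = 0.0977), a lower level than that of Igf2r in every kidney.

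**Figure D2:**
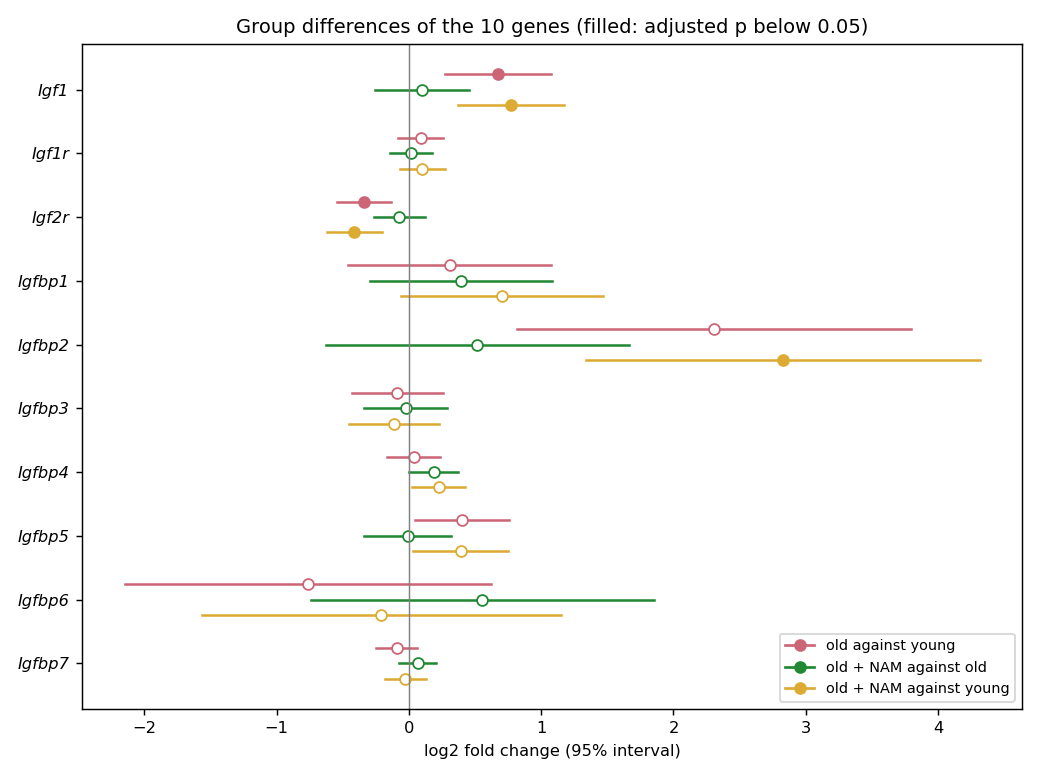
Log2 fold changes of the 10 genes with 95% intervals from the edgeR fit for 3 comparisons of groups. Filled points passed an adjusted p of 0.05: Igf1 and Igf2r between old and young, and Igf1, Igf2r and Igfbp2 between nicotinamide-fed and young kidneys.

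Among the binding proteins, Igfbp2 had the largest log2 fold change between old and young. It had few tags in young kidneys: 0.290 to 3.30 CPM (median 0.788), or 2 to 22 counts. Old kidneys had 2.37 to 15.2 CPM (median 4.59) and nicotinamide-fed kidneys 0.901 to 24.7 (median 7.92). All 8 old kidneys lay above the young median and 6 of 8 above every young kidney. The value in old mice was 4.96-fold that in young mice (log2 fold change 2.31 ± 0.71 SE, 95% interval 0.82 to 3.80) and did not pass (edgeR adjusted p = 0.0556). It passed in 10 of 33 alternatives, among them DESeq2 (adjusted p = 0.00751), the fit of the 2 groups alone (0.000700), the fit without the 4 kidneys (1.88, adjusted p = 0.0189) and the removal of young replicate 3 (2.95, adjusted p = 0.0301) or nicotinamide replicate 1 (0.0214), 2 (0.0436), 7 (0.0296) or 8 (0.0485), while limma-voom gave 0.179. In nicotinamide-fed against young kidneys Igfbp2 rose 7.09-fold (2.83 ± 0.71, edgeR adjusted p = 0.0162), and the call was lost with limma-voom (0.142) and with a replicate block (2.73, adjusted p = 0.0527). Old replicate 7 (15.2 CPM) and nicotinamide replicate 1 (24.7 CPM) were the highest of their groups. These kidneys also had the highest principal cell marker sums, which were mostly Aqp2. Without old replicate 7 the difference between old and young was 1.97 (adjusted p = 0.109).

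Igfbp5, a binding protein that also attaches to extracellular matrix, was far more abundant. It lay at 289 to 402 CPM in young (median 382), 320 to 729 in old (median 470) and 339 to 659 in nicotinamide-fed kidneys (median 464). In old mice 6 of 8 kidneys lay above every young kidney. The log2 fold change of 0.40 ± 0.17 SE (95% interval 0.04 to 0.76) did not pass after adjustment (edgeR adjusted p = 0.182) and passed in 0 of 33 alternatives. It was 0.30 without old replicate 7, the highest kidney of its group (729 CPM); nicotinamide replicates 3 and 1 were the highest of theirs (659 and 657 CPM). The 5 principal cell markers themselves had 0 members past between old and young (median log2 fold change −0.07), with sums of 163 to 354 CPM in young and 213 to 816 in old kidneys. None of the 5 was at 0 in any group, and their part in the Igfbp2 and Igfbp5 values was not tested.

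**Figure D3:**
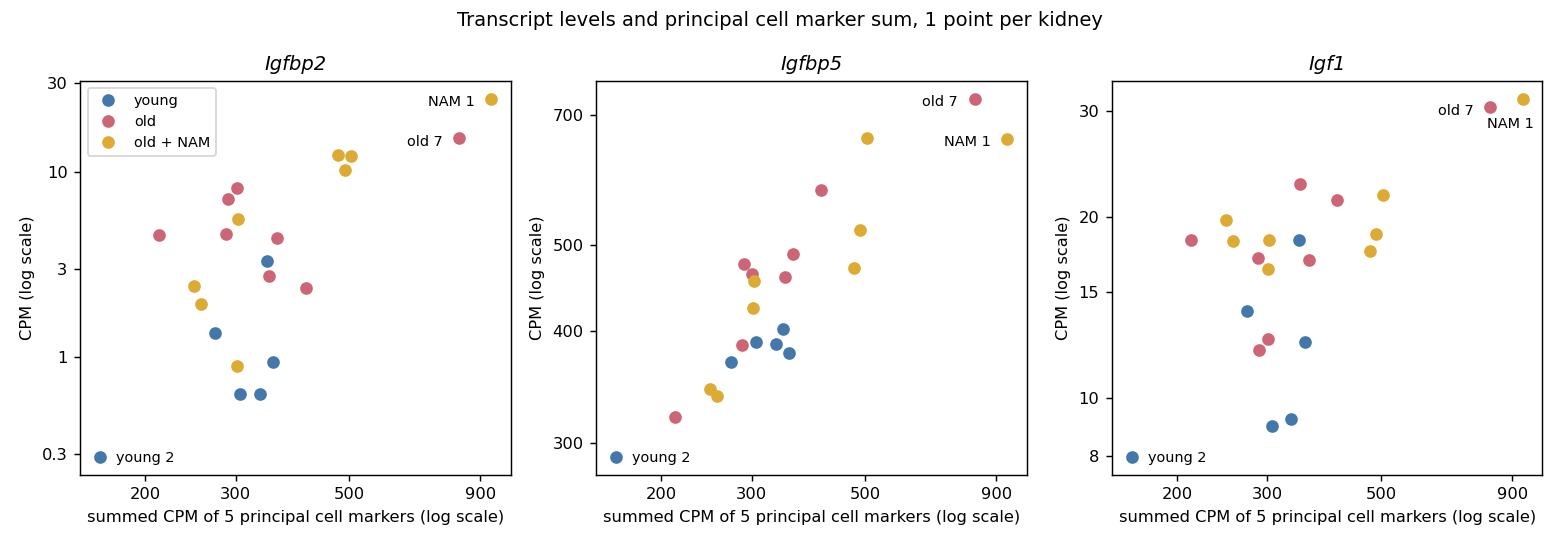
CPM of Igfbp2, Igfbp5 and Igf1 against the summed CPM of 5 principal cell markers, both on log scales, with 1 point per kidney. Old replicate 7 and nicotinamide replicate 1, at 816 and 944 CPM of the markers, lie at the high end in all 3 plots, and young replicate 2, at 163 CPM, is the lowest kidney in each. Aqp2 made up most of the sums of 816 and 944 CPM (662 and 793 CPM).

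Igfbp3, the main carrier of IGFs in blood, had 74.5 to 126 CPM in young kidneys, 73.6 to 122 in old ones and 50.1 to 133 with nicotinamide. The medians of 93.8, 89.2 and 84.4 CPM differed by less than the spread within each group (old against young −0.09, 95% interval −0.43 to 0.25, edgeR adjusted p = 0.830). Igfbp4, an inhibitor of IGF action that pappalysin cleaves, lay at 670 to 913 CPM in young and 610 to 910 in old kidneys (0.04, −0.16 to 0.24, adjusted p = 0.880). Igfbp7, a secreted protein with low affinity for IGFs that is used as a urinary marker of tubular stress, was the most abundant binding protein. It lay at 956 to 1171 CPM in young and 898 to 1172 in old kidneys (−0.09, −0.25 to 0.06, adjusted p = 0.537). The gene Polr2b, for a subunit of RNA polymerase II, overlaps Igfbp7 on the other strand. It stood at 22.4 to 50.3 CPM in young kidneys and did not pass between old and young (edgeR adjusted p = 0.875).

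Igfbp1, a short-lived binding protein whose gene is repressed by insulin in liver, varied widely within each group. It lay at 3.90 to 20.5 CPM in young (median 15.2), 9.30 to 25.9 in old (median 15.4) and 7.72 to 36.7 in nicotinamide-fed kidneys (median 20.8). Its log2 fold change between old and young was 0.31 (95% interval −0.46 to 1.08, edgeR adjusted p = 0.704). Igfbp6, which prefers IGF-2, was near the limit of detection, with 0 to 27 counts in young libraries and 1 to 33 in those of old mice on either diet. Young replicates 1 and 2 (3.94 and 3.92 CPM) and nicotinamide replicate 2 (4.01 CPM) were the highest, and young replicates 5 and 6 had no count. No difference was detectable at this depth (−0.76, 95% interval −2.15 to 0.62, edgeR adjusted p = 0.584).

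As shares of all IGFBP tags of a library, Igfbp7 made up 41.5% to 50.5% in young kidneys (median 47.2%), 38.8% to 45.4% in old (median 42.4%) and 37.6% to 47.4% in nicotinamide-fed kidneys (median 40.5%). Igfbp5 made up 12.6% to 17.7% in young (median 16.1%), 14.0% to 30.5% in old (median 19.5%) and 13.5% to 25.7% in nicotinamide-fed kidneys (median 18.0%). Igfbp4 had medians of 32.1%, 32.9% and 36.7% in these groups. Shares sum to a fixed total, so a higher share of one lowers the others. Igfbp2 had a median share of 0.0338%, 0.187% and 0.305%, so its fold difference involved few transcripts.

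Nicotinamide feeding was compared with age-matched kidneys without it. With edgeR 0 of 10 passed between them, and 1 had an unadjusted p under 0.05, against 6.18% of all genes; DESeq2 and limma-voom also gave 0. That 1 gene was Igfbp4, at 610 to 910 CPM in old (median 788) and 648 to 1061 in nicotinamide-fed kidneys (median 961). Of the nicotinamide-fed kidneys 5 lay above every old kidney and 3 within the old range, below the old median (log2 fold change 0.19 ± 0.09 SE, 95% interval 0.00 to 0.37, unadjusted p = 0.0453, edgeR adjusted p = 0.788). Igf1 (0.10, −0.26 to 0.46) and Igf2r (−0.07, −0.27 to 0.12), the genes that passed between old and young with edgeR, had intervals around 0. For Igfbp2 (0.52, −0.63 to 1.66) and Igfbp1 (0.39, −0.29 to 1.08) the intervals were wide. The value of Igfbp2 was 0.08 without nicotinamide replicate 1, 0.86 without old replicate 7 and 0.61 without the 4 kidneys.

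Each member was also compared with the other 14682 genes tested for how it varied from kidney to kidney, after the mean of its group was removed (Pearson's r on log2 CPM over 22 kidneys; Spearman's rho beside it). These are the highest of many and are given as a description. Igfbp5 went with the GTPase-activating protein gene Srgap3 (r = 0.893, rho = 0.868), Aqp2, the vasopressin-regulated water channel of the collecting duct (r = 0.890, rho = 0.897), and Mrps6 (r = 0.851, rho = 0.791). Igfbp2 went with the RNA-binding protein gene Rbms3 (r = 0.887, rho = 0.845), Nfat5, the transcription factor that responds to high salt in the medulla (r = 0.861, rho = 0.805), and again Srgap3 (r = 0.844, rho = 0.823). Without the 4 kidneys named above, over 18 kidneys, r was 0.838 for Igfbp5 with Aqp2 and 0.818 for Igfbp2 with Nfat5. Igf1 went with Map2 (r = 0.785, rho = 0.616), the urothelial Upk1b (r = 0.775, rho = 0.660) and Btbd10 (r = 0.775, rho = 0.701), and without the 4 kidneys r with Upk1b was 0.632.

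Igfbp4 went with Pdzk1ip1 (r = 0.858, rho = 0.844), Dab2, an endocytic adaptor of the proximal tubule (r = 0.843, rho = 0.819), and Fads2 (r = 0.834, rho = 0.817). Igfbp3 went with Fancd2os (r = 0.840, rho = 0.806), Zfp740 (r = 0.832, rho = 0.813) and Nit2 (r = 0.823, rho = 0.796). Igfbp1 went with Wnk1, a kinase of salt handling (r = 0.771, rho = 0.815), the copper chaperone Ccs (r = 0.771, rho = 0.784) and the potassium channel Kcnj15 (r = 0.755, rho = 0.665). For Igf2r they were Ppp1r16b (r = 0.791, rho = 0.854), the peroxiredoxin Prdx1 (r = 0.780, rho = 0.798) and B4galt5 (r = 0.776, rho = 0.771), and for Igf1r the histone-binding Rbbp4 led (r = 0.854, rho = 0.823). Igfbp6 went with Haus6 (r = 0.813, rho = 0.783), Retnla (r = 0.796, rho = 0.773) and the lymphocyte factor Irf4 (r = 0.777, rho = 0.774), at counts of 0 to 33. For Igfbp7 the highest r was 0.743, with Gm13840.

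The rest of the pathway was read from lists of 66 further genes, of which 57 passed the low-count filter. Between old and young kidneys 3 rose and 1 fell, against a background of 3.90% and 3.15% of all genes, and the median log2 fold change was −0.04 against 0.01 over all genes. Between nicotinamide-fed and old kidneys 0 passed with edgeR, against 0.0272% of all genes, and DESeq2 and limma-voom gave 0 too. In the edgeR test 4 of the 57 had an unadjusted p under 0.05, against 6.18% of all genes. Between nicotinamide-fed and young kidneys Socs3 (log2 fold change 2.05 ± 0.27 SE) and Stc1 (1.14 ± 0.18) rose. Irs1, an adaptor of the insulin and IGF-1 receptors, fell (−0.59 ± 0.18, edgeR adjusted p = 0.0299), and its call was lost in 8 of 33 alternatives.

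In the growth hormone axis 1 of 8 genes rose, against 3.90% of all genes tested. Socs3, an inhibitor of cytokine and growth hormone receptor signalling, had 1.25 to 6.15 CPM in young kidneys, 8.33 to 17.1 in old ones and 7.70 to 19.6 with nicotinamide. Young and old kidneys did not overlap, which held for 2.64% of all genes. It rose 3.87-fold (log2 fold change 1.95 ± 0.27 SE, edgeR adjusted p = 7.84e-06), and the call held in all 33 alternatives. Ghr, the growth hormone receptor, stood at 562 ± 39.1 CPM in young and 528 ± 48.4 in old kidneys (−0.09 ± 0.09, adjusted p = 0.620).

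Of 6 tested proteases and inhibitors 1 rose, against 3.90% of all genes tested. Stc1, a secreted inhibitor of pappalysin and a regulator of calcium and phosphate, had 6.69 to 15.8 CPM in young kidneys, 18.8 to 29.96 in old ones and 16.2 to 26.7 with nicotinamide. The old kidneys of either diet lay above every young kidney; groups that did not overlap were found for 2.21% of all genes between nicotinamide-fed and young mice. It rose 2.36-fold in old kidneys (1.24 ± 0.18, edgeR adjusted p = 1.58e-05), also in all 33 alternatives. Pappa, the protease itself, stood at 10.96 ± 2.85 CPM in young and 14.7 ± 5.53 in old kidneys and did not pass (0.42 ± 0.30, adjusted p = 0.470).

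In receptor signalling 1 of 34 genes fell, against 3.15% of all genes tested. Mtor, the kinase that joins growth factor and nutrient signals, had 87.3 to 112 CPM in young kidneys, 47.1 to 76.0 in old ones and 34.3 to 87.7 with nicotinamide. All 8 old kidneys lay below every young kidney, and groups did not overlap for 2.64% of all genes. Mtor fell 1.54-fold (−0.62 ± 0.13, edgeR adjusted p = 0.00294), and the call held in all 33 alternatives. In nicotinamide-fed against young kidneys Mtor had a value of −0.39 ± 0.13 and did not pass (adjusted p = 0.0542); between nicotinamide-fed and old it had 0.23 ± 0.12 (adjusted p = 0.822). A list of other ligands, carriers, receptors and IGF-2 mRNA-binding proteins had 5 tested genes. Between old and young 1 of them rose, against 3.90% of all genes tested. It was no ligand, carrier or receptor: Igf2bp1, which encodes an RNA-binding protein that acts on IGF-2 mRNA among others, lay at 6.30 to 19.2 CPM in young and 8.96 to 29.1 in old kidneys (0.78 ± 0.21, edgeR adjusted p = 0.0172). Its call was lost without young replicate 3 (adjusted p = 0.0559).

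The family of secreted proteins with an IGFBP-like domain had 0 of 4 tested genes past with edgeR, and 2 of them had an unadjusted p under 0.05, which 20.7% of all genes tested had between old and young. These 2, Ccn2, a matrix-linked growth factor target, and Ccn1, had 198 ± 33.4 and 24.7 ± 9.03 CPM in young against 300 ± 78.5 and 39.5 ± 14.8 in old kidneys (0.60 ± 0.21 and 0.66 ± 0.26, adjusted p = 0.0887 and 0.141). Ccn2 passed with DESeq2 (adjusted p = 0.0432) and limma-voom (0.0384). In nicotinamide-fed kidneys Ccn2 stood at 234 ± 75.8 and Ccn1 at 26.6 ± 8.56 CPM, and neither passed against old kidneys (edgeR adjusted p = 0.821 and 0.727). The lowest p of the list in that comparison was that of Ccn4, at 8.34 ± 1.82 CPM in old and 4.93 ± 1.89 in nicotinamide-fed kidneys, which did not pass either (−0.76 ± 0.27, edgeR adjusted p = 0.609).

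**Figure D4:**
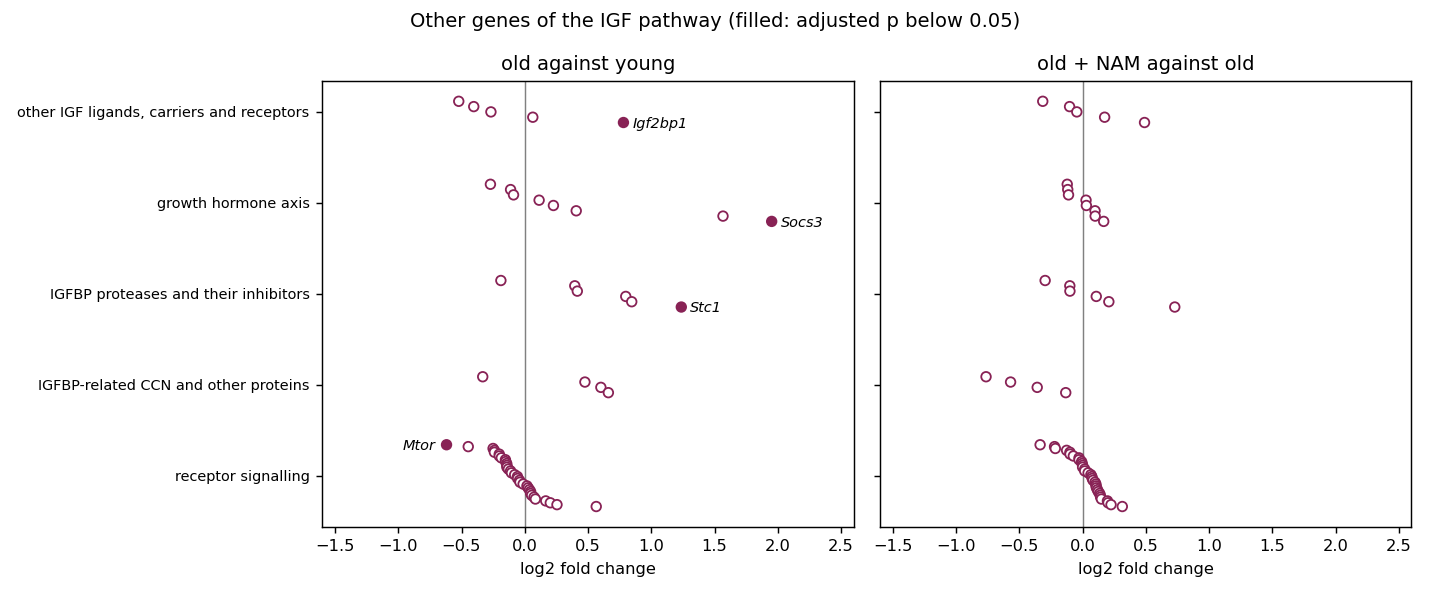
Log2 fold changes of 57 further IGF pathway genes by list, between old and young (left) and between nicotinamide-fed and old kidneys (right), with 1 point per gene. Filled points passed an adjusted p of 0.05 and are named: Socs3, Stc1 and Igf2bp1 rose and Mtor fell on the left, and none passed on the right.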

How the data were processed

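Gene counts of 22 kidney libraries were analysed as deposited: raw counts per gene, made by the authors with STAR and HTSeq, per the submitters' processing notes. The notes name the human build GRCh38, while the identifiers are of mouse genes; no version or strand rule was named, so only RefSeq promoter windows carry coordinates. The 5 summary entries that name no gene were left out. Genes with too few counts were removed with filterByExpr (minimum count 10, minimum total 15), leaving 14683 genes that held 99.75% of counts. The 3 groups were fitted in one robust quasi-likelihood model in edgeR 4.0.16 (R 4.3.3, TMM scaling), with Benjamini-Hochberg adjustment over all genes tested and a threshold of 0.05; the script was tested on simulated data. CPM are counts per 1000000 gene counts of the library, its total after the filter scaled by its TMM factor. The limit for Igf2 used unscaled gene counts. Values of r were computed on log2 CPM with a prior count of 2. Alternatives used DESeq2 1.42.0, limma 3.58.1, other scalings and filters, a replicate block, and each library left out. Libraries with the same replicate number did not deviate together (20 pairs, r from −0.082 to 0.0587). Intervals for counts of 0 cover counting error only.

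The members and gene lists were chosen with earlier results of these data known. All members are described; of each pathway list, genes past the threshold between old and young or with nicotinamide are named, or the 2 with the lowest p where none passed, and of likeness, up to 3 genes per member. Insr, Ghr, Pappa, Ccn4 and Irs1 are named outside this rule, after their values were seen. The result of 1 pathway gene is not reported here.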

Additional observations from a re-analysis of the deposited data

Results flagged for a closer look

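In 5 of 30 sets of 1 member in 1 group, 1 kidney lay far from the others by Dixon's test at the 95% level. Chance gives about 1 in 20 for independent, normally distributed values. These sets share kidneys and some rest on low counts, so that rate is only a rough guide. For Igfbp2, young replicate 3 stood at 3.30 CPM, above 0.290 to 1.34 in the other young kidneys, and old replicate 7 at 15.2 CPM, above 2.37 to 8.17 in the other old kidneys. For Igfbp5, young replicate 2 stood at 289 CPM, below 370 to 402 in the other young kidneys. For Igfbp6, nicotinamide replicate 2 stood at 4.01 CPM, above 0.481 to 2.10 in its group. For Igf1, nicotinamide replicate 1 stood at 31.5 CPM, above 16.4 to 21.7 in its group.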

How the results depend on the processing

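Across 33 alternatives no log2 fold change that passed changed sign. Between old and young kidneys the number of members past the threshold was 0 with limma-voom and 0 to 3 when each replicate was left out in turn, with 0 without young replicate 2, young replicate 4, old replicate 1 or old replicate 7. The cause was not tested. Between nicotinamide-fed and young kidneys the pathway genes past the threshold numbered 2 to 5 when each replicate was left out, with 2 without young replicate 2, nicotinamide replicate 4 or nicotinamide replicate 7. Between nicotinamide-fed and old kidneys members and pathway genes past the threshold numbered 0 in every alternative. With a replicate block, 2 members passed between old and young (Igf1 0.67, adjusted p = 0.0394; Igf2r −0.36, adjusted p = 0.0273) and 2 between nicotinamide-fed and young kidneys, where Igfbp2 no longer did; the shared replicate numbers do not pair the mice. Igfbp2 in young kidneys and Igfbp6 in all groups rest on few counts, which limits their precision.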
